A study of Mus musculus with 6 samples.

Results

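The genes examined here were 10 ubiquitin ligases of skeletal muscle that are tied to muscle atrophy, chosen by symbol, out of 52550 mouse genes in the deposited table. They were Fbxo32, Trim63, Trim54, Fbxo30, Fbxo21, Trim32, Cblb, Nedd4, Mul1 and Traf6, and each was found on a single row and passed the filter on low counts. RNA came from quadriceps of male mice aged 13 weeks according to the labels, 3 FLExDUX4 and 3 wild-type littermates (WT), whereas the methods of the study give triceps and a younger age for the sequenced muscle. FLExDUX4 mice are hemizygous for a human DUX4 transgene that sits backwards between lox sites at the Rosa26 locus, and as no Cre was present the transgene gives at most a very low, leaky DUX4 expression. WT littermates lack the transgene, and neither group was treated. The libraries were QuantSeq libraries, which read the 3′ end of polyadenylated transcripts, so a count stands for a transcript rather than for a length of it.

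Muscle loses mass when protein breakdown exceeds synthesis, and much of the breakdown runs through the ubiquitin-proteasome system. An activating enzyme and a conjugating enzyme pass ubiquitin to a ligase, and the ligase chooses the protein that is tagged for the proteasome. Atrogin-1 (Fbxo32) and MuRF1 (Trim63) are the best-known ligases of atrophying muscle. Their genes are switched on by FoxO transcription factors and by glucocorticoids, and held down by insulin and IGF-1 signaling.

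The values compared are the deposited sums of counts over the 3 mice of each genotype. Counts per library were deposited too, but under names that match no sample label, and they were not used, so there was no replicate check and no test on any value below. The totals were 13110125 counts on genes in FLExDUX4 mice and 18367364 in WT mice. Levels are given as counts per 1000000 counts (CPM) after TMM scaling, and genotypes are compared as the log2 ratio of FLExDUX4 to WT with its 95% Clopper-Pearson limits, called the interval below, which take in the error of counting but not the spread between mice. A gene was called different when the ratio reached a fold of 1.5, which is 0.585 on the log2 scale. In whole muscle, fewer cells of a type and less RNA per cell cannot be told apart. Myofiber genes led the libraries, with summed levels of 107400 and 107960 CPM for 8 myofiber markers in FLExDUX4 and WT mice, so the tissue was muscle as labelled. Human DUX4 was not analysed here, so the transgene gave no check of the genotypes. Gt(ROSA)26Sor, the gene at the site of the transgene, had 63 counts in each total, or 4.86 CPM in FLExDUX4 and 3.39 CPM in WT mice, a log2 ratio of 0.52 (limits -0.01 to 1.04).

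None of the 10 ligase genes was called higher and none lower, while 13.2% of the 13396 genes compared were called higher and 13.5% lower. The share past this fold falls with the number of counts. Of genes with 200 to 1000 counts over both totals, as 6 of the ligases had, 10.3% passed it in either direction, and of genes with 1000 to 20000 counts, as the other 4 had, 1.29% did, so 0 of 10 is no sign that the ligases were steadier than genes with like counts. The counting interval lay above 0 for 3 ligase genes (Trim63, Fbxo21 and Cblb) and below 0 for 1 (Mul1), against 20.5% and 20.6% of all genes compared. With spike-in totals as the scaling this balance turned round, to 1 gene above 0 (Trim63) and 5 below, against 7.59% and 47.1% of all genes. With gene totals as the scaling it was 3 above and 2 below, Fbxo32 being the added one. Under TMM scaling, a share of 4 in 10 is close to the 41.1% of all genes whose interval excludes 0, so as a group the ligases did not stand out. At a lower bar, a log2 ratio of 0.32, Trim63, Fbxo21 and Cblb were higher and none lower, beside 22.6% and 22.8% of all genes, and at a fold of 2 no ligase gene was either, beside 5.99% and 7.43%. The median log2 ratio of the 10 was 0.14, beside -0.001 for all genes compared, and 7 of the 10 ratios were above 0 (4 of 10 with spike-in scaling). Spike-in totals, used as another scaling, moved the median of all genes to -0.28 and that of the ligases to -0.14. All ratios moved together by -0.28 under that scaling, so the differences among the ligases remained as given.

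Promoter sequence is shown for 3 of the genes, from 250 bases before to 50 bases after the start site in RefSeq (GRCm38.p6), each on the plus strand and read 5′ to 3′. Trim63 had the highest ratio among the abundant ligases, Trim54 is its close relative with a ratio near 0, and Mul1 had the lowest ratio of the 10. The table used held promoters for 9 of the 10 genes, and Fbxo32 was not among them. Capitals mark matches to GTAAACA (the FoxO site), GAACA and TGTTC with any 3 bases between them (the glucocorticoid receptor site) and CACGTG (the E-box bound by CLOCK and BMAL1), searched on both strands.
Trim63 (chr4:134314870-134315169): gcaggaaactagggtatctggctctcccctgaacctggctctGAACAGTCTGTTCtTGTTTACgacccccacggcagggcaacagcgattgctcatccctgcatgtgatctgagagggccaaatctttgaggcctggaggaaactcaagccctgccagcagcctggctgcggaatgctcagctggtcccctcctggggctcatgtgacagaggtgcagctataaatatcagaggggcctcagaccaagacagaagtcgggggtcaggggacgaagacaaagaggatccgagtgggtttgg
Trim54 (chr5:31116362-31116661): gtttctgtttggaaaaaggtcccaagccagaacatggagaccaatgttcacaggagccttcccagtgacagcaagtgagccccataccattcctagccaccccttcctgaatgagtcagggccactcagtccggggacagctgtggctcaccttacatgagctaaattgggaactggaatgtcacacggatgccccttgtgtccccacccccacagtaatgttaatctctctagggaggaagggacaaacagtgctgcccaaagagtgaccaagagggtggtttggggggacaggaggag
Mul1 (chr4:138434422-138434721): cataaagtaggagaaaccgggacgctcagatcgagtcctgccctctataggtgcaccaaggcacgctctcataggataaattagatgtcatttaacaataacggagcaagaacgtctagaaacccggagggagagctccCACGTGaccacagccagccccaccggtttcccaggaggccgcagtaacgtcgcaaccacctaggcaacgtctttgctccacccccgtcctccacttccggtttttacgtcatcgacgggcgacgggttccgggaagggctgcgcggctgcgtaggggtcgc
In Trim63 the glucocorticoid receptor match GAACAGTCTGTTC lay at positions -208 to -196 from the start site, and the FoxO match, read as TGTTTAC on this strand, followed at -194 to -188. These matches do not overlap. Of 32817 promoters of this length, 0.0579% hold the first motif and 3.65% the second. Mul1 held an E-box at -111 to -106, which 7.15% of promoters hold. The windows of the other 7 genes with a promoter, Trim54 included, held none of these letters. These are matches of letters only, and binding was not measured.

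**Figure D1:**
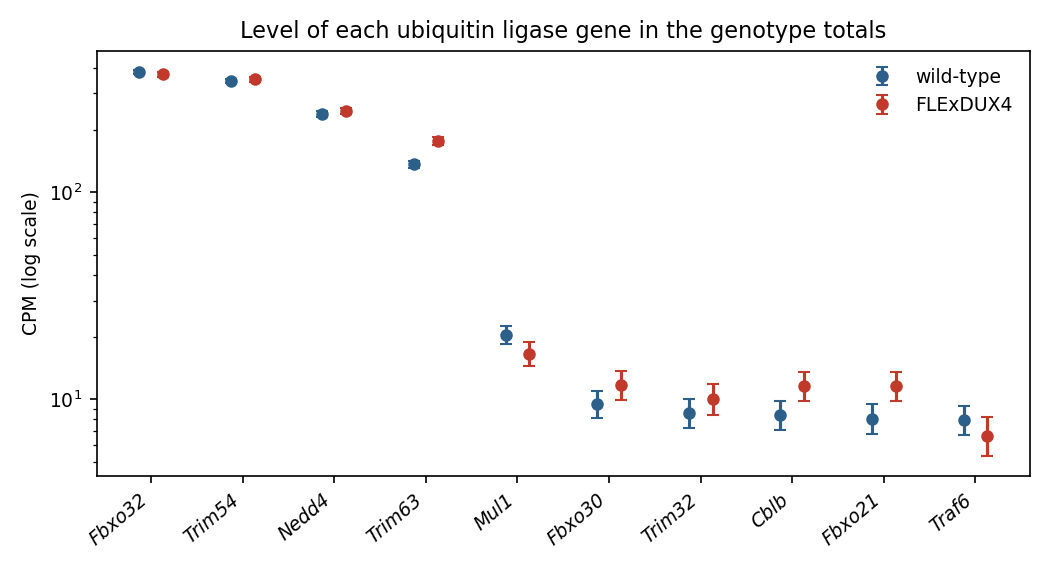
Level of each ligase gene in the WT total (blue) and the FLExDUX4 total (red), in CPM on a log axis, with 95% Poisson intervals for counting error. 4 genes sit above 100 CPM in both genotypes (Fbxo32, Trim54, Nedd4 and Trim63), and the other 6 lie between 6.63 and 20.5 CPM.

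The levels of the 10 genes fell into a high and a low tier, in the same arrangement in both genotypes. In WT mice Fbxo32 was highest at 380.03 CPM, followed by Trim54 at 344.6, Nedd4 at 238.8 and Trim63 at 136.6 CPM. Mul1 came next at 20.5 CPM, and the remaining 5 genes lay between 7.92 and 9.48 CPM. In FLExDUX4 mice the first 5 places were the same, and the last 5 genes lay between 6.63 and 11.7 CPM. The counting intervals of neighbours did not overlap among the first 6 places of either genotype. Among the last 5 genes neighbours overlapped in WT mice, and in FLExDUX4 mice only Traf6 lay below the gene before it. The 10 genes together took 0.120% of all counts in FLExDUX4 mice and 0.118% in WT mice.

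Of the F-box ligases, Fbxo32 (chromosome 15 of GRCm38, 58175879 to 58214932, minus strand) encodes atrogin-1, the substrate receptor of an SCF ligase that targets MyoD and the translation factor eIF3f. It had 4826 counts in FLExDUX4 mice and 7053 in WT mice, which is 372 against 380.03 CPM and gives a log2 ratio of -0.03 (limits -0.08 to 0.02). The interval holds 0 although it is among the narrowest here. Fbxo30 (chromosome 10, 11281330 to 11298052), which encodes MUSA1, had 152 counts against 176, a ratio of 0.31 (limits -0.02 to 0.63). Fbxo21 (chromosome 5, 117976730 to 118010201), which encodes the ligase named SMART, had 150 counts in each total. With the smaller FLExDUX4 total this was 11.6 against 8.08 CPM, and the ratio of 0.52 (limits 0.18 to 0.85) was the highest of the 10. The F-box genes thus differed in level by far more than in ratio, with Fbxo32 more abundant than the other two in each genotype.

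The tripartite motif genes include the MuRF proteins, which sit on the sarcomere. Trim63 (chromosome 4, 134315120 to 134329629) encodes MuRF1, which tags thick filament proteins. It had 2294 counts in FLExDUX4 mice and 2536 in WT mice, or 176.8 and 136.6 CPM, a ratio of 0.37 (limits 0.29 to 0.45), or 1.29-fold. Trim54 (chromosome 5, 31116712 to 31137630) encodes MuRF3, and had 4552 counts against 6395, a ratio of 0.03 (limits -0.03 to 0.08). Trim55, which encodes MuRF2 and is not among the 10, had 220 counts against 303, a ratio of 0.06 (limits -0.20 to 0.31). Of the MuRF genes only Trim63 had an interval without 0, whereas with spike-in scaling its ratio was 0.10 and that of Trim54 was -0.25, with an interval below 0. Trim32 (chromosome 4, 65604986 to 65616238), whose protein tags desmin, had 130 counts against 159, a ratio of 0.23 (limits -0.12 to 0.57). Astn2 overlaps Trim32 on the other strand and had at most 3 counts in a total. It covers the 3′ end of Trim32, and what the overlap did to the counts of Trim32 was not tested.

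**Figure D2:**
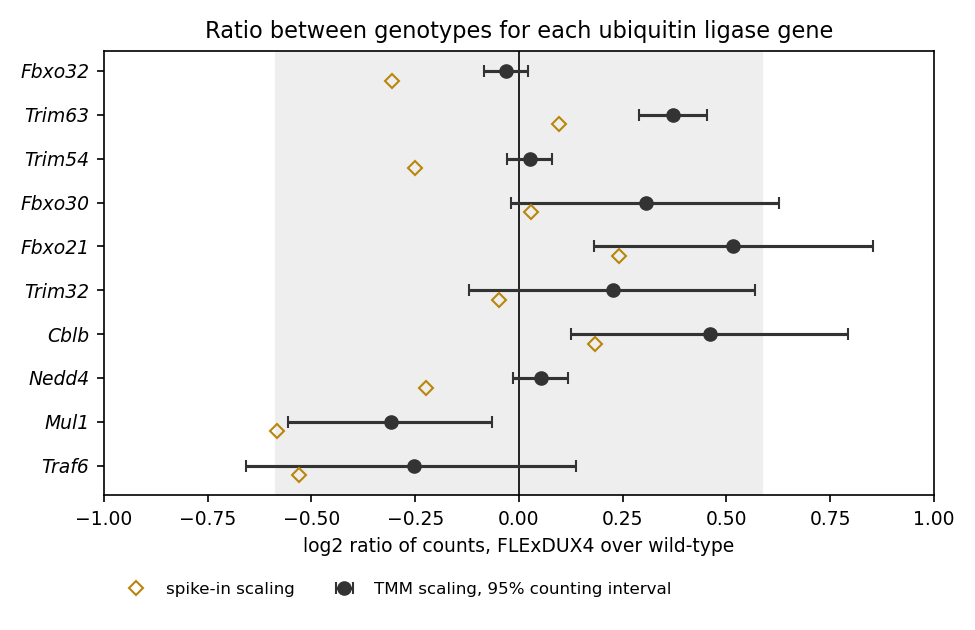
Log2 ratio of FLExDUX4 to WT counts for each ligase gene, with TMM scaling (filled circles, 95% counting intervals) and with spike-in scaling (open diamonds). The grey band covers ratios under a fold of 1.5, and all 10 TMM values lie inside it, from -0.31 for Mul1 to 0.52 for Fbxo21.

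Of the other ligases, Nedd4 (chromosome 9, 72662346 to 72749852) is a HECT ligase of membrane proteins and receptors. It had 3212 counts against 4431, a ratio of 0.05 (limits -0.01 to 0.12). Gene models of unproven status that lie on its strand had further counts, the most being 177 and 255 for Gm7265. Cblb (chromosome 16, with a deposited start of 52031549) encodes a ligase of IRS1, the insulin receptor substrate. It had 150 counts against 156, or 11.6 and 8.41 CPM, a ratio of 0.46 (limits 0.13 to 0.79). Its relative Cbl had 291 counts against 493, a ratio of -0.24 (limits -0.46 to -0.03). Thus there were 51.5 Cblb counts per 100 Cbl counts in FLExDUX4 mice and 31.6 in WT mice, a log2 difference of 0.70 (exact conditional limits 0.31 to 1.10). Other ligases also rose against a relative. The difference was 0.32 for Nedd4 against Nedd4l (limits 0.09 to 0.55) and 0.32 for Trim63 against Trim55 (limits 0.05 to 0.59). Nedd4l itself had a ratio of -0.27 (limits -0.49 to -0.05).

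Mul1 (chromosome 4, 138434671 to 138442265) encodes a ligase of the outer mitochondrial membrane that tags mitofusin 2. It had 215 counts in FLExDUX4 mice and 381 in WT mice, or 16.6 and 20.5 CPM. Its ratio of -0.31 (limits -0.56 to -0.06) was the only one below 0 with an interval that excludes 0 under TMM scaling. Traf6 (chromosome 2, 101678429 to 101701669), which joins cytokine receptors to NF-κB, had 86 counts against 147, a ratio of -0.25 (limits -0.66 to 0.14). With 86 counts it was the least measured of the 10 genes.

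Ratios between genes of the same genotype total, which pools 3 mice by their depth, do not depend on the scaling, and were used to compare the ligases with each other. Trim63 had 47.5 counts per 100 Fbxo32 counts in FLExDUX4 mice and 36.0 in WT mice, a log2 difference of 0.40 (exact conditional limits 0.30 to 0.50). Against Trim54 the difference was 0.35 (limits 0.25 to 0.44), and against Nedd4 it was 0.32 (limits 0.21 to 0.42). So Trim63 was higher in FLExDUX4 mice relative to each of the other abundant ligases, beyond counting error. Trim54 and Nedd4 relative to Fbxo32 gave differences of 0.06 (limits -0.02 to 0.13) and 0.08 (limits -0.002 to 0.17). Of the 10 genes' own counts, Trim63 made up 14.5% in FLExDUX4 mice (Clopper-Pearson limits 14.0 to 15.1) and 11.7% in WT mice (limits 11.3 to 12.2). The share of Fbxo32 was 30.6% (limits 29.9 to 31.3) against 32.7% (limits 32.1 to 33.3).

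**Figure D3:**
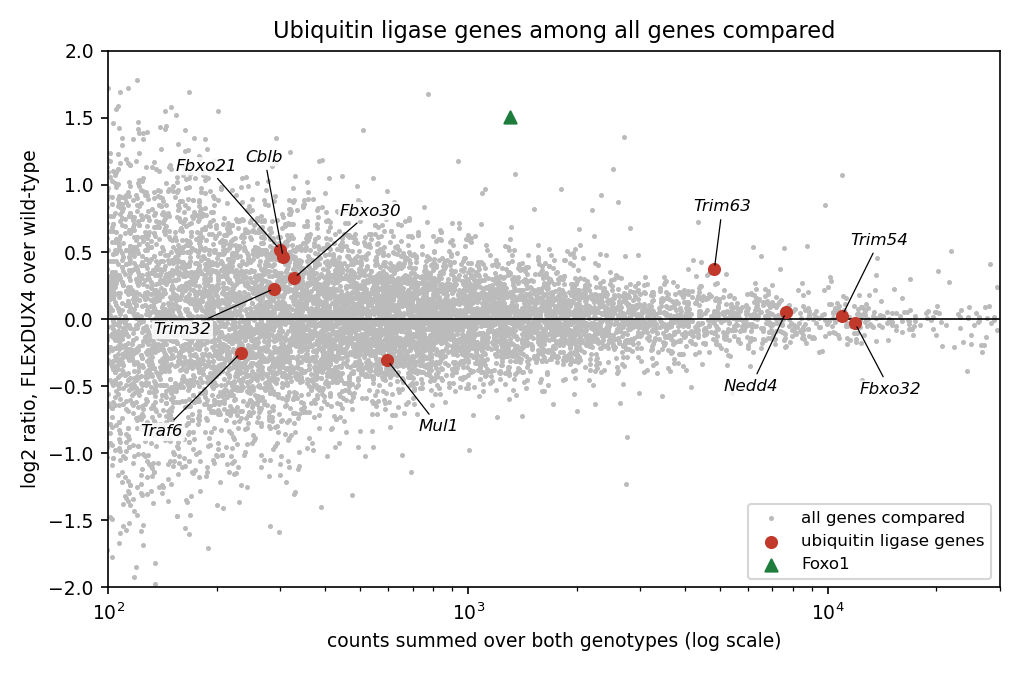
Log2 ratio of each gene (grey) against its counts summed over both genotypes, on a log axis, for genes with at least 100 counts and ratios from -2 to 2 (the most abundant genes lie beyond the axis). The ligase genes (red) lie within the grey cloud, Trim63 near its upper edge at 4830 counts, and Foxo1 (green triangle) lies above it at 1.51.

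The width of the cloud depends on the number of counts. Of 2627 genes with 1000 to 20000 counts over both totals, the middle 95% of ratios ran from -0.39 to 0.42, and 3.69% of these genes had a ratio at or above that of Trim63. Fbxo32, Trim54 and Nedd4, in the same range, lay near its center. Of 4648 genes with 200 to 1000 counts, the middle 95% ran from -0.73 to 0.72. In that range 7.66% of genes were at or above Fbxo21, 9.62% at or above Cblb and 18.3% at or below Mul1. Thus no ligase gene lay outside the middle 95% of genes with like counts.

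Upstream of these ligases, 3 of 15 genes for activating factors (20%) were called higher and none lower, beside 13.2% and 13.5% of all genes, with a median ratio of 0.09 (-0.19 with spike-in scaling). Foxo1, which encodes a transcription factor that drives Fbxo32 and Trim63, had 872 counts against 438, a ratio of 1.51 (limits 1.34 to 1.68). Klf15, a glucocorticoid-induced factor, had 342 counts against 252, a ratio of 0.96 (limits 0.72 to 1.20). Tnfrsf12a, the receptor of TWEAK, had a ratio of 1.04 (limits 0.30 to 1.81) from only 39 and 27 counts. Per 100 Fbxo32 counts there were 18.1 Foxo1 counts in FLExDUX4 mice and 6.21 in WT mice. Of the most abundant genes in this list, the AMPK subunit gene Prkaa2 had a ratio of -0.01 (limits -0.09 to 0.06) and the glucocorticoid receptor gene Nr3c1 of 0.16 (limits 0.05 to 0.27).

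Among 9 genes of pathways that hold the ligase genes down, 1 (11.1%) was called higher and 3 (33.3%) lower, beside 13.2% and 13.5% of all genes, with a median ratio of 0.03 (-0.25 with spike-in scaling). With spike-in scaling 0 were called higher and 3 lower, beside 7.82% and 23.7% of all genes. Smad7, an inhibitor of TGF-β signaling, had a ratio of 0.75 (limits 0.37 to 1.13). Irs1, which carries the insulin signal and is a substrate of the Cblb ligase, had 607 counts against 1396, a ratio of -0.68 (limits -0.82 to -0.55). Junb had 83 counts against 202, a ratio of -0.76 (limits -1.15 to -0.39), and Smad6 a ratio of -0.69 with an interval that reached 0 (-1.46 to 0.01). Ppargc1a, which encodes PGC-1α and is the most abundant of the list, had a ratio of 0.40 (limits 0.28 to 0.52).

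Genes that commonly rise with the ligases in atrophy were also read. Of 13 such genes, 10 had an interval above 0 and none below it, beside 20.5% and 20.6% of all genes. Of genes with 1000 to 20000 counts, as 11 of the 13 had, 47.9% had an interval without 0 in either direction. With spike-in scaling 4 were above and 4 below, beside 7.59% and 47.1%. At a fold of 1.5, 1 (7.69%) was called higher (0 with spike-in scaling), beside 13.2% of all genes, and 11 of the 13 had 1000 to 20000 counts, where 1.29% passed. The median ratio was 0.26 (-0.01 with spike-in scaling). Pdk4, which slows glucose oxidation, had 5470 counts against 4329, a ratio of 0.85 (limits 0.80 to 0.91). Sqstm1, which encodes the autophagy receptor p62, had a ratio of 0.18 (limits 0.12 to 0.24). Another 3 are named after their values were seen, namely the autophagy gene Gabarapl1 at 0.44 (limits 0.28 to 0.61), the translation inhibitor gene Eif4ebp1 at 0.54 (limits 0.38 to 0.70) and the metallothionein gene Mt2 at 0.55 (limits 0.33 to 0.77). Fbxo32, the best-known gene of the same program, had the ratio of -0.03 given above.

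Markers of other cell types were read beside these values. None of 5 blood markers was called, but all their ratios were above 0 with intervals above 0, from 0.25 for Hba-a1 to 0.45 for Alas2 (from -0.02 to 0.17 for these with spike-in scaling). Their summed levels were 1279 and 1020 CPM. Of 6 adipocyte markers 3 (Cfd, Adipoq and Retn) were called higher and 1 lower, beside 13.2% and 13.5% of all genes. The lower one was Lep, at -0.82 with an interval that reached 0. With spike-in scaling 1 was called higher and 1 lower, beside 7.82% and 23.7% of all genes. Their summed levels were 379 and 297 CPM, with Cfd at 113 against 61.6 CPM and Adipoq at 22.7 against 13.9 CPM. Fabp4, the most abundant of the 6, had a ratio of 0.11 (limits 0.05 to 0.18), or -0.16 with spike-in scaling. Endothelial markers summed to 153 and 178 CPM, and 1 of 4 (Tek, at -0.63) was called lower, beside 13.5% of all genes. Kdr had a ratio of -0.56 (limits -0.70 to -0.42), whereas Pecam1 and Cdh5 had ratios of 0.06 and -0.03 with intervals that hold 0. With gene totals and with spike-in scaling 2 of 4 were called lower, beside 14.2% and 23.7% of all genes. Fibroblast markers summed to 1221 and 1111 CPM, and none of 4 was called, with ratios of 0.53 for Col1a1 and 0.04 for the abundant Dcn. Leukocyte markers summed to 26.3 and 25.8 CPM but went both ways, 3 of the 5 compared being above 0 and 2 below. Itgam had a ratio of 1.002 (limits 0.06 to 2.002), and the macrophage genes Cd68 and Adgre1 had ratios of -0.64 and -0.66 with intervals that reached 0. Schwann cell markers summed to 84.9 and 82.4 CPM. The part of these cells in the ratios of Trim63, Cblb and the atrophy genes was not tested.

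**Figure D4:**
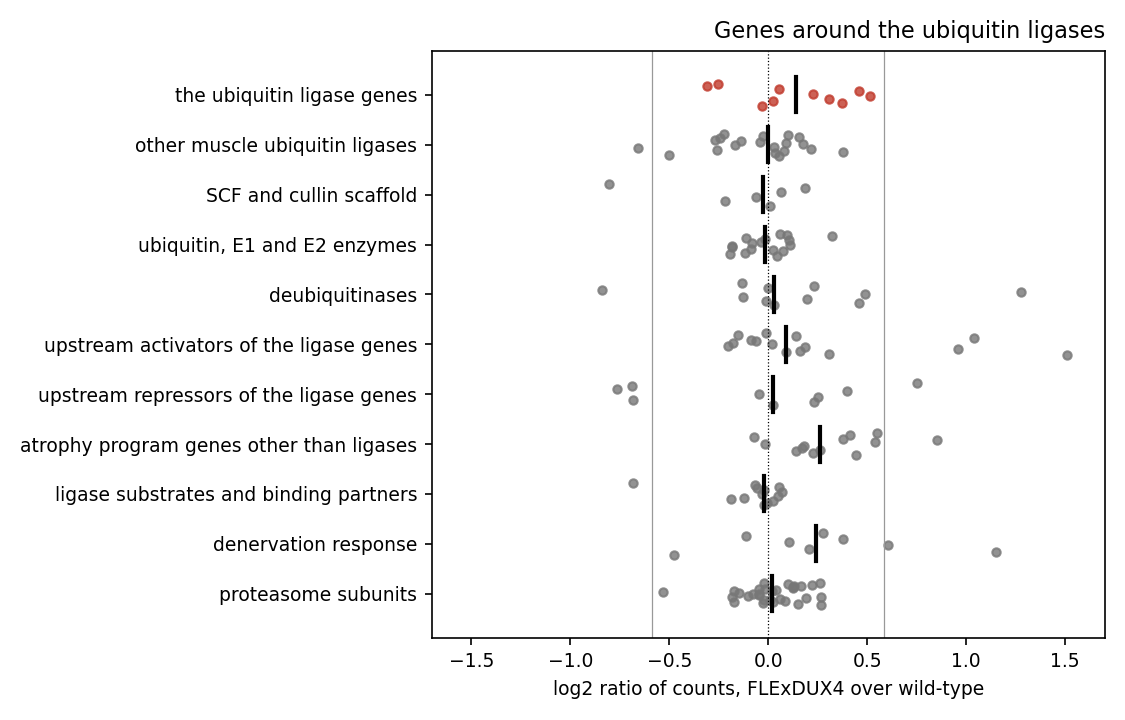
Log2 ratio of FLExDUX4 to WT counts (TMM scaling) for the genes of each list, a dot per gene, with the list's median as a black bar and grey lines at a fold of 1.5 in each direction. The ligase genes (red, median 0.14) stay within the lines, whereas Foxo1 at 1.51 is the farthest dot to the right, in the list of upstream activators.

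Most genes of the machinery that works with the ligases had ratios near 0 under TMM scaling. Among 6 scaffold genes of SCF and cullin ligases, Cand1, which exchanges F-box proteins, was the 1 gene called (16.7%, beside 13.5% of all genes called lower), with 83 counts against 208, a ratio of -0.80 (limits -1.19 to -0.44). The abundant Cul3 and Nedd8 had ratios of 0.19 (limits 0.11 to 0.26) and 0.07 (limits -0.03 to 0.16). None of 17 measured genes for ubiquitin and for activating and conjugating enzymes was called, and their median was -0.02. Of these, 12 had 1000 to 20000 counts, where few genes of any kind were called (1.29%). Ube2b, the most abundant conjugating enzyme gene, had a ratio of 0.02 (limits -0.03 to 0.07). None of 31 proteasome subunit genes was called, but 29 of them lay in that same range of counts. Their median was 0.02, and Psmc3 and Psmd7, the most abundant, had ratios of -0.15 and 0.13.

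Of 20 other ligase genes of muscle, none was called higher and 1 (5%) lower, beside 13.2% and 13.5% of all genes, and 13 of them had 1000 to 20000 counts. Their median was -0.001. Smurf1, a ligase of BMP and TGF-β signaling, had 107 counts against 242, a ratio of -0.66 (limits -1.003 to -0.33). Asb2 and Klhl41, the most abundant, had ratios of -0.17 (limits -0.22 to -0.11) and -0.03 (limits -0.09 to 0.03). Among 11 deubiquitinase genes 1 was called in each direction (9.09%). Uchl1 was called higher from 19 and 11 counts (1.28, limits 0.16 to 2.52) and Uchl3 lower from 128 and 329 counts (-0.84, limits -1.15 to -0.55). Usp2, a clock-driven gene and the most abundant of the list, had 6713 counts against 6997, a ratio of 0.46 (limits 0.41 to 0.51), and Usp19 had a ratio of -0.13 (limits -0.24 to -0.02).

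Of 13 substrates and binding partners, 1 (Irs1, 7.69%) was called lower and none higher, beside 13.5% and 13.2% of all genes, with a median of -0.02. The counting interval lay above 0 for 3 of the 13 and below 0 for 6 (0 and 13 with spike-in scaling), beside 20.5% and 20.6% of all genes (7.59% and 47.1% with spike-in scaling). The most abundant were Ttn, the sarcomere scaffold to which MuRF1 binds, with a ratio of -0.07 (limits -0.07 to -0.06), and Ckm, with a ratio of 0.05 (limits 0.04 to 0.06). Named after their values were seen, Eif3f, a target of atrogin-1, had a ratio of -0.01 (limits -0.09 to 0.08), Mfn2, a target of the Mul1 ligase, of 0.02 (limits -0.05 to 0.10), and Des, a target of the Trim32 ligase, of -0.19 (limits -0.23 to -0.15).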

How the data were processed

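QuantSeq libraries were made from muscle RNA of 3 mice per genotype. Per the submitters' processing notes and the study's methods, the authors used cutadapt 1.16 for trimming, STAR 2.5.3a for alignment to GRCm38 plus spike-in sequences, featureCounts 1.6.2 for counting and DESeq2 for their comparison; the strand setting of the counting was not given in the sources used here. The deposited counts used here are raw counts per gene summed over each genotype by the authors. Their comparison columns (fold change, its error, p-values and the mean behind them) were not used, nor were 6 columns of counts per library whose names match no sample label. The test across mice planned with edgeR was therefore not run.

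Genes kept by filterByExpr (13396) were given TMM factors with edgeR 4.0.16 under R 4.3.3. Log2 ratios used a pseudocount of 0.5, and intervals were computed with scipy 1.17.1. The interval script was tested on simulated counts. Spike-ins were left out of gene totals. Alternatives were other scalings, filters, pseudocount and folds.

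The members and lists were chosen with earlier results of these data known. Named genes are the 10 members and, from each list, called genes whose interval excludes 0 (up to 4 in each direction) and the 2 with the most counts; others are said to be chosen after their values were seen. Some genes that the rule names are not reported here. Smad6, Runx1, Chrng, the relatives Trim55, Cbl and Nedd4l, markers and overlapping genes were also named after their values were seen. Coordinates are from GENCODE M21 (GRCm38) where the start equals the deposited one.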

Additional observations from a re-analysis of the deposited data

How the results depend on the processing

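No paired analysis was possible because the counts per library carry names that match no sample label and only the sums of each genotype were used, and for the same reason tests over mice, DESeq2 and leaving out each mouse were not run. RLE, upper quartile and gene total scaling, no filter, a minimum of 10 counts in each total, a pseudocount of 5 and scaling to the 8 myofiber markers (the last chosen after seeing the data) left every ligase ratio within its counting interval, the count of called ligases at 0 in each direction and list medians close to those reported. Scaling to the spike-in totals moved all genes by -0.28. This took Fbxo32 to -0.31, Trim54 to -0.25, Nedd4 to -0.22, Mul1 to -0.58 and Trim63 to 0.10, outside their counting intervals. The number of pathway list genes called higher went from 8 to 5 and lower from 6 to 9. Of all genes, the share called higher went from 13.2% to 7.82% and the share called lower from 13.5% to 23.7%. Ligases with an interval above and below 0 went from 3 and 1 to 1 and 5 with spike-in totals, and to 3 and 2 with gene totals. Why the spike-ins differ from TMM was not tested. At the lower fold tried (0.32 on the log2 scale), 3 ligases were higher, against 0 at a fold of 1.5, beside 22.6% and 13.2% of all genes. At a fold of 2, 4 pathway list genes were higher and 0 lower, against 8 and 6 of 141 at a fold of 1.5. Of all genes, 5.99% were higher and 7.43% lower at a fold of 2, and 13.2% and 13.5% at a fold of 1.5. These shares fall with the number of counts. Counting error limits Traf6, Trim32, Fbxo21, Cblb and Fbxo30, and the spread between mice was not used for any value.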

Other observations

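Loss of the nerve switches on a set of muscle genes together with the ligases, and 8 of 11 such genes had enough counts to be compared. Their median log2 ratio was 0.24, or -0.04 with spike-in scaling. Myog, a myogenic factor that activates Fbxo32 and Trim63 after denervation, had 50 counts in FLExDUX4 mice and 32 in WT mice, a ratio of 1.15 (limits 0.49 to 1.85). Chrna1, a subunit of the acetylcholine receptor, had 119 counts against 237, a ratio of -0.47 (limits -0.81 to -0.15), which is the other direction. Hdac4, the most abundant of the list, had a ratio of 0.10 (limits -0.06 to 0.27). The embryonic receptor gene Chrng had 0 counts in both totals. Runx1 had a ratio of 0.61 with an interval that reached 0.

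Satellite cell markers were few in counts, and summed to 6.71 CPM in FLExDUX4 mice and 9.21 CPM in WT mice. Pax7, which marks these muscle stem cells, had 35 counts against 89, a ratio of -0.82 (limits -1.44 to -0.25). Myf5 had 1.77 against 1.40 CPM, a ratio of 0.34 (limits -0.54 to 1.21), and Vcam1 a ratio of -0.42 (limits -1.13 to 0.24), both with an interval that holds 0.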
